A study of Mus musculus with 6 samples.

Results

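The Canopy genes Cnpy1, Cnpy2, Cnpy3 and Cnpy4 were examined in the vomeronasal organ of wild-type and Cnpy1 knockout mice, to ask whether loss of Cnpy1 is met by a change in its paralogs and how the levels of the 4 genes rank. They were chosen by name, and are 4 of the 35450 genes to which the deposited transcript estimates were summed. The 2 groups were wild type (Cnpy1+/+) and knockout (Cnpy1-/-), 3 littermate mice each, all 60 days old, with 2 males and 1 female per genotype. In the wild-type group, replicates 1 and 3 were male and replicate 2 was female, and in the knockout group replicates 1 and 2 were male and replicate 3 was female. Poly(A) RNA from the whole organ of both sides of 1 mouse went into 1 library. The part of Cnpy1 that the knockout allele removes is not given in the sources used here. Because whole organs were sequenced, fewer cells of a type and less RNA per cell cannot be told apart.

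Canopy proteins are small, cysteine-rich proteins of the endoplasmic reticulum (ER), with a fold related to the saposins, and several of them act beside chaperones on proteins that enter the secretory pathway. The founding member, canopy1 of zebrafish, binds a fibroblast growth factor (FGF) receptor and promotes FGF signalling at the boundary of midbrain and hindbrain. CNPY2 binds the ubiquitin ligase Mylip and has been linked to the ER stress sensor PERK, CNPY3 is a cochaperone of the ER chaperone GRP94 in the folding of Toll-like receptors, and CNPY4 affects the surface level of Tlr4. The vomeronasal organ is a pheromone-sensing organ of the nose whose basal neurons, a class that uses V2R receptors, have an unusually large smooth ER.

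The 4 genes lie on 3 chromosomes of the GRCm38 assembly, in the GENCODE M21 annotation. Cnpy1 (ENSMUSG00000044681.19) occupies positions 28200819 to 28245806 of chromosome 5 on the minus strand. Cnpy4 (ENSMUSG00000036968.15) is on the plus strand of the same chromosome, at 138187485 to 138193918. Cnpy2 (ENSMUSG00000025381.3) is at 128322459 to 128327553 of chromosome 10 on the plus strand, and Cnpy3 (ENSMUSG00000023973.13) at 46735705 to 46752214 of chromosome 17 on the minus strand. Their coding exons were compared within 2 pairs, Cnpy1 with Cnpy2 and Cnpy3 with Cnpy4, and identity across the pairs was not computed. In the most abundant transcript of each gene, the coding exons of Cnpy1 measured 99, 204, 97 and 35 bases and those of Cnpy2 88, 116, 204, 97 and 41 bases. Cnpy3 had coding exons of 151, 124, 97, 123, 118 and 215 bases, and Cnpy4 of 136, 127, 97, 123, 118 and 134 bases. The neighbouring exons of 204 and 97 bases were 51.5% and 56.7% identical between Cnpy1 and Cnpy2. The exons of 97, 123 and 118 bases were 51.5%, 65.0% and 61.9% identical between Cnpy3 and Cnpy4.

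**Figure D1:**
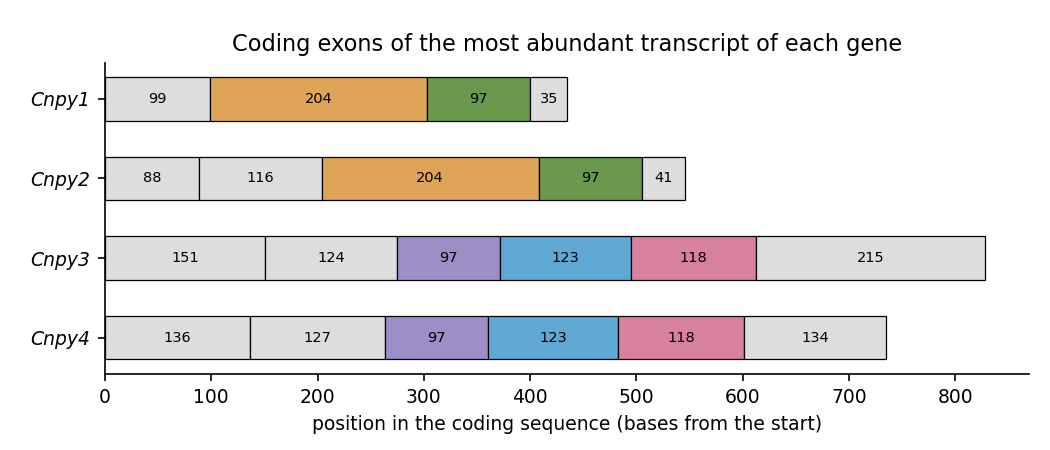
Coding exons of the most abundant transcript of Cnpy1, Cnpy2, Cnpy3 and Cnpy4, drawn to scale in bases from the start of the coding sequence; the numbers are exon lengths. Coloured boxes of like colour are exons of the same length in the same order within a pair, 204 and 97 bases in Cnpy1 and Cnpy2, and 97, 123 and 118 bases in Cnpy3 and Cnpy4.

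An exon of each pair is shown to let the likeness of the paralogs be read directly, since it bears on whether their reads can be told apart. The sequences are those of the GENCODE M21 transcripts, 5′ to 3′ on the strand of the gene, and capitals mark bases that are the same at the same position in the other member of the pair. They lie at chr5:28207287-28207383 (Cnpy1, minus strand), chr10:128326577-128326673 (Cnpy2, plus strand), chr17:46737175-46737292 (Cnpy3, minus strand) and chr5:138192561-138192678 (Cnpy4, plus strand).
Cnpy1, exon of 97 bases: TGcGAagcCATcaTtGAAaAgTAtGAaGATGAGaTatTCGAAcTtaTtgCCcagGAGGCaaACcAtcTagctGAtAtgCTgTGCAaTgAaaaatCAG
Cnpy2, exon of 97 bases: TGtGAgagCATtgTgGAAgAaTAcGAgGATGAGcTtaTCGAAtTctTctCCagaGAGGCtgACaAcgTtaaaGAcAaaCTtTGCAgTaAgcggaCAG
Cnpy3, exon of 118 bases: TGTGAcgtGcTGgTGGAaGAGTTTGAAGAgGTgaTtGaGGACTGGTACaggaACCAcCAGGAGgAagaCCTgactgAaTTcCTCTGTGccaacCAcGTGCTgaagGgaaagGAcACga
Cnpy4, exon of 118 bases: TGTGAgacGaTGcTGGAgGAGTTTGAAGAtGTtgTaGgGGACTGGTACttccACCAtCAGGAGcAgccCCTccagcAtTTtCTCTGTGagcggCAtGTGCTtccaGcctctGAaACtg
The longest run of identical bases was 6 in the exons of 97 bases and 11 in those of 118 bases. Over all annotated transcripts, no stretch of 31 bases occurred in 2 different Canopy genes. Of the stretches in Cnpy2-202, 98.2% occurred in no other gene quantified, as did 95.5% of those in Cnpy3-202 and 95.4% of those in Cnpy3-204, and for the other transcripts 100%.

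By TPM, the share of a library's transcripts that a gene makes up after its reads are divided by transcript length, Cnpy1 was the most abundant Canopy gene in wild-type organs. Its level was 121.6, 147.1 and 160.3 TPM in wild-type replicates 1, 2 and 3, and 37.3, 39.2 and 46.4 TPM in knockout replicates 1, 2 and 3. All 3 knockouts thus lay far below all wild types. Cnpy2 stood at 103.6, 110.0 and 116.0 TPM in wild type and at 102.7, 110.3 and 122.3 TPM in the knockout. Its ranges overlapped over most of their length. The levels of Cnpy3 were 29.6, 30.5 and 28.0 TPM in wild type and 29.1, 27.5 and 31.2 TPM in the knockout, and again the groups overlapped. Cnpy4 was the least abundant, with 12.1, 14.3 and 13.2 TPM in wild type and 12.5, 10.9 and 14.5 TPM in the knockout. The lowest and the highest Cnpy4 value both came from knockout mice.

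**Figure D2:**
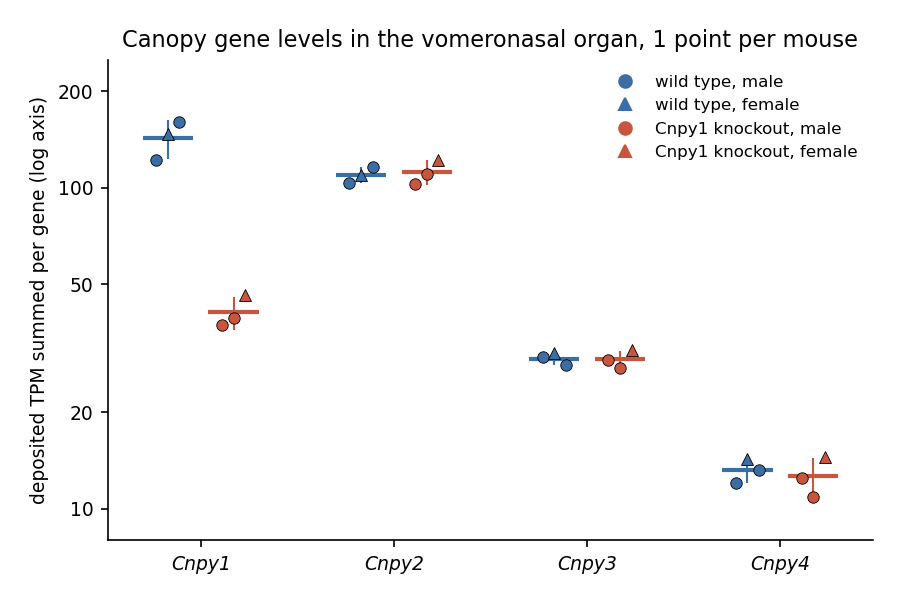
Level of each Canopy gene in every mouse, as deposited TPM summed over the gene's transcripts, on a log axis; circles are males, triangles females, horizontal bars group means and vertical lines SD (n = 3). Cnpy1 falls from between 121.6 and 160.3 TPM in wild type to between 37.3 and 46.4 TPM in the knockout, while the points of the 2 genotypes overlap for Cnpy2, Cnpy3 and Cnpy4.

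The order of the paralogs was Cnpy2, then Cnpy3, then Cnpy4 in 6 of 6 mice. Within a mouse, Cnpy2 was 3.78-fold above Cnpy3, a mean log2 difference of 1.92 ± 0.10 (SD, n = 6 mice) in TPM. Cnpy3 was 2.28-fold above Cnpy4, with a log2 difference of 1.19 ± 0.11 (SD, n = 6 mice), and Cnpy2 was 8.61-fold above Cnpy4. Each of the 3 pairs gave a two-sided exact sign-flip permutation p of 0.03125 (0.03125 after Benjamini-Hochberg adjustment over the 3 pairs), the smallest that 6 mice allow. These differences were many times the spread between mice, but the size of those of Cnpy2 depended on how length was counted. By reads per kilobase of the longest transcript, the log2 difference was 1.22 for Cnpy2 over Cnpy3 and 2.33 for Cnpy2 over Cnpy4. By the most abundant transcript of each gene alone, it was 1.58 and 2.65. The order held in both. Only the place of Cnpy1 moved with genotype, and since Cnpy1 is the targeted gene its place is given as a description. Its TPM was 1.17, 1.34 and 1.38 times that of Cnpy2 in the wild types, where the ranges of the 2 genes did not overlap, and 0.363, 0.356 and 0.380 times in the knockouts. In the knockouts Cnpy1 still lay above Cnpy3, by 1.28, 1.43 and 1.49 times.

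Set among all genes with a TPM above 0, which numbered 19749 to 20141 per library, Cnpy2 took a place between 759 and 984 from the top, in the 95.02 to 96.2 percentile. Cnpy1 had a similar place in wild type, between 638 and 762. In the knockout it stood between 2448 and 2890, in the 85.5 to 87.7 percentile. Cnpy3 stood between 3507 and 4193 and Cnpy4 between 6996 and 7443, so that Cnpy4, in the 62.7 to 65.0 percentile, was still above the median expressed gene. For scale, the ER chaperone genes Hspa5 and Hsp90b1 reached 605 to 780 and 405 to 516 TPM, and the neuronal channel gene Trpc2 98.7 to 157.1 TPM, a range that includes every value of Cnpy2.

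Summed over the paralogs, the difference between genotypes was smaller than the spread between mice in TPM but not in CPM, and the groups overlapped on both scales. The summed TPM of Cnpy2, Cnpy3 and Cnpy4 was 152.4 ± 6.32 in wild type and 153.7 ± 12.6 in the knockout (SD, n = 3 each), which differ by 1.23 TPM (p = 0.9 by a two-sided exact permutation test). Over the same mice the mean of Cnpy1 fell by 102.0 TPM. The sum of all 4 genes was therefore 295.4 ± 25.9 TPM in wild type and 194.7 ± 17.5 TPM in the knockout (SD, n = 3 each), 65.9% of wild type, with no overlap (two-sided exact permutation p = 0.1, the smallest that 3 against 3 mice allow). The log2 ratio of this sum was -0.60 in TPM but -1.11 in CPM, where reads are not divided by length. For the summed paralogs it was 0.01 in TPM and 0.07 in CPM, where 113.2 ± 4.77 in wild type and 119.03 ± 5.27 in the knockout (SD, n = 3 each) differ by 5.83 CPM, more than either SD (two-sided exact permutation p = 0.3). As shares of that sum, Cnpy1 went from 48.3% ± 2.49 to 21.02% ± 0.572 (SD, n = 3 each). The share of Cnpy2 went from 37.3% ± 1.33 to 57.4% ± 1.12, that of Cnpy3 from 10.01% ± 1.15 to 15.1% ± 0.818 and that of Cnpy4 from 4.47% ± 0.292 to 6.48% ± 0.606 (SD, n = 3 each). Shares add to a fixed total, so those of the paralogs had to grow as that of Cnpy1 shrank.

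The test between genotypes used estimated reads rather than TPM. Libraries held 60969508 to 71670766 estimated reads, and the 4 genes were well sampled. Cnpy1 had 18542, 18885 and 24203 reads in wild type and 4021, 4528 and 5129 in the knockout. Over the 6 libraries, Cnpy2 had 3627 to 4419 reads, Cnpy3 2271 to 2545 and Cnpy4 925 to 1177. Of 16679 genes tested with edgeR's quasi-likelihood test, 0.761% were called at an adjusted p under 0.05, 0.683% lower and 0.0779% higher in the knockout, and 16.2% had no overlap between the groups (7.22% with all knockouts above all wild types). Cnpy1 was called, with 280, 303 and 325 CPM (reads relative to the library's total) in wild type and 67.2, 77.6 and 76.3 CPM in knockout mice. Its log2 fold change was -2.04 (SE 0.08, 95% interval -2.23 to -1.85, edgeR adjusted p = 1.75e-05).

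None of the 3 paralogs was called, 0 of 3 had an unadjusted p under 0.05 (10.5% of all genes did), and 0 of 3 had groups that did not overlap. Cnpy2 measured 60.7 ± 1.68 CPM in wild-type mice and 64.2 ± 4.74 CPM in knockout mice (SD, n = 3 each). Its log2 fold change was 0.08 (SE 0.06, 95% interval -0.06 to 0.23, edgeR adjusted p = 0.724). Cnpy3 measured 36.0 ± 2.74 and 38.2 ± 1.32 CPM (SD, n = 3 each), with a log2 fold change of 0.09 (SE 0.07, 95% interval -0.07 to 0.24, edgeR adjusted p = 0.735). Cnpy4 measured 16.6 ± 0.901 and 16.6 ± 0.838 CPM (SD, n = 3 each), with a log2 fold change of 0.01 (SE 0.07, 95% interval -0.16 to 0.17, edgeR adjusted p = 0.99). The median of the paralogs was 0.08, beside 0.01 for all genes tested, of which 52.3% lay above 0.

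In percent of the wild-type level, the 95% intervals ran from -4.2% to 17.01% for Cnpy2, from -4.6% to 18.0% for Cnpy3 and from -10.4% to 12.6% for Cnpy4. The widest of them spanned 0.33 on the log2 scale, beside a median width of 0.40 over all genes, so the paralogs were measured at least as precisely as a typical gene. Leaving out 1 library moved the limits. Without knockout replicate 2, the estimate for Cnpy2 was 0.02 (95% interval -0.11 to 0.15), and without knockout replicate 1 it was 0.12 (-0.04 to 0.28). Without wild-type replicate 3, Cnpy3 stood at 0.03 (-0.12 to 0.17), and without wild-type replicate 1 at 0.14 (-0.04 to 0.31). The lower limit was also more than 1.5 times as far from 0 without wild-type replicate 2 or 3 for Cnpy2 (-0.10 in each) and without knockout replicate 2 for Cnpy3 (-0.12). By TPM, the knockout mean was 101.8% of wild type for Cnpy2, 99.5% for Cnpy3 and 95.7% for Cnpy4 (two-sided exact permutation p = 0.9, 1 and 0.8, n = 3 each). The sign for Cnpy3 and Cnpy4 thus differed between TPM and CPM, and for Cnpy4 the CPM value also turned to -0.02 without scaling factors, to -0.03 without wild-type replicate 3 and to -0.03 without knockout replicate 3.

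**Figure D3:**
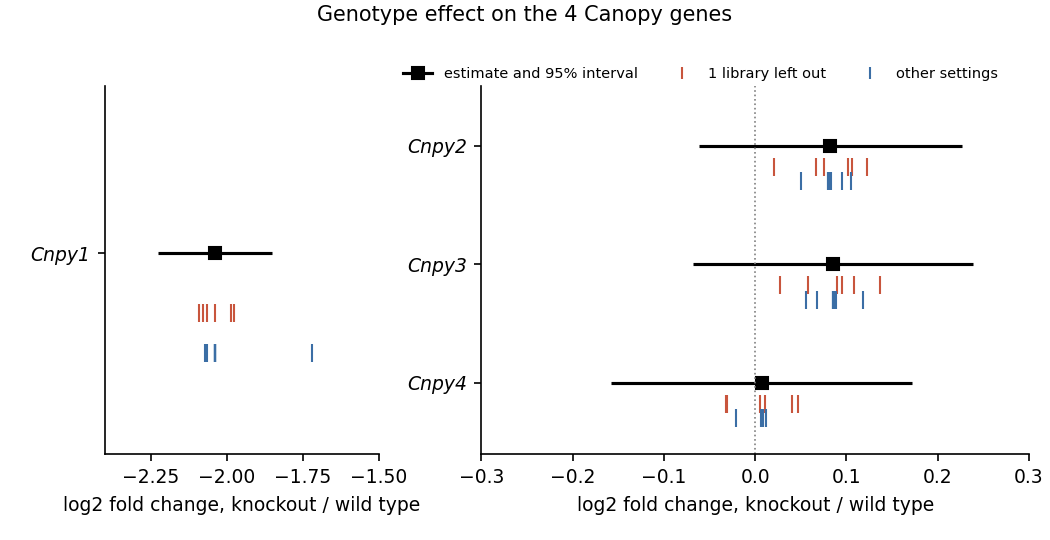
Genotype effect on each Canopy gene as log2 fold change (knockout over wild type): squares and black lines are the edgeR estimate and its 95% interval, red ticks the estimates with 1 library left out, blue ticks those under other settings. Cnpy1 lies between -2.09 and -1.72 throughout (left, on its own axis), while the intervals of Cnpy2, Cnpy3 and Cnpy4 (right) all include 0 and end at or below 0.24.

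No Canopy gene was called for a difference in genotype effect between the sexes. The log2 fold change in females minus that in males was 0.07 (SE 0.18) for Cnpy1, -0.04 (SE 0.15) for Cnpy2, -0.10 (SE 0.16) for Cnpy3 and -0.01 (SE 0.15) for Cnpy4 (edgeR interaction term, adjusted p from 0.968 to 0.999). For this term 0.024% of the genes tested were called. With 1 female per genotype, sex and single animal cannot be told apart.

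Most of the Cnpy1 reads that remained in the knockout were assigned to an annotated transcript that held few of them in wild type. Of the 18 annotated transcripts of the 4 genes, 16 had reads and 11 were tested. Cnpy1-205 (ENSMUST00000141601.8, 4 exons, 3018 bases, of which 435 coding) reached 115.1, 139.8 and 151.4 TPM in wild type and 7.90, 7.43 and 9.11 TPM in the knockout, 6.02% of wild type. Cnpy1-203 (ENSMUST00000120068.1, 3 exons, 2284 bases, of which 519 coding) went the opposite way, from 6.21, 6.99 and 7.96 TPM to 29.0, 31.2 and 36.6 TPM. The groups were far apart for both transcripts. Cnpy1-205 made up 94.7% ± 0.334 of the gene's TPM in wild type and 19.9% ± 1.16 in the knockout, and Cnpy1-203 4.94% ± 0.178 and 78.7% ± 0.887 (SD, n = 3 each). Cnpy1-201 stayed at or below 0.689 TPM in all 6 mice. Cnpy1-202 was listed at 0.358, 0 and 0.407 TPM in wild type and at 0 in the 3 knockouts, and Cnpy1-204 was listed at 0 throughout.

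Tested among 43741 transcripts, of which 0.11% were called (0.096% lower and 0.0137% higher), Cnpy1-205 and Cnpy1-203 were the 2 Canopy transcripts called. Cnpy1-205 changed by -3.97 on the log2 scale (SE 0.07, edgeR adjusted p = 9.11e-05) and Cnpy1-203 by 2.28 (SE 0.09, edgeR adjusted p = 0.00318). The call of Cnpy1-203 was lost when wild-type replicate 2 was left out (2.26, edgeR adjusted p = 0.0627) and with the replicate number as a block (2.28, edgeR adjusted p = 0.108). In these 2 fits Cnpy1-205 was the only transcript called, of 46811 and 43741 tested. In males only, 0 of 45076 transcripts were called. The estimates there were -3.98 for Cnpy1-205 (edgeR adjusted p = 0.129) and 2.23 for Cnpy1-203 (edgeR adjusted p = 0.339). How the estimation divided reads between transcripts could not be examined without read positions.

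**Figure D4:**
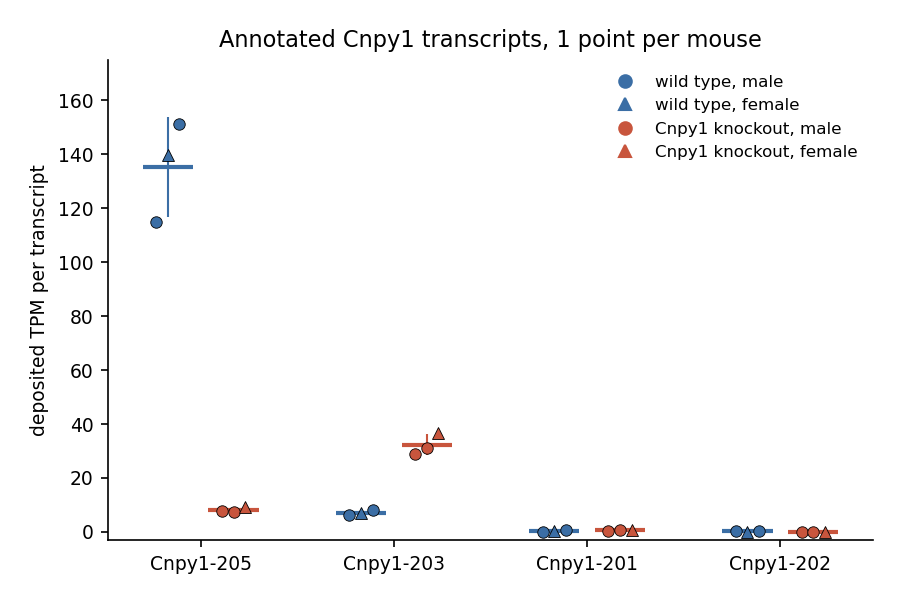
Level of the annotated Cnpy1 transcripts with reads, in deposited TPM per transcript; circles are males, triangles females, horizontal bars group means and vertical lines SD (n = 3). Cnpy1-205 drops from between 115.1 and 151.4 TPM to between 7.43 and 9.11 TPM, and Cnpy1-203 rises from between 6.21 and 7.96 TPM to between 29.0 and 36.6 TPM.

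The 2 transcripts part at the end of the exon of 97 bases printed above for Cnpy1. Cnpy1-205 splices there to a last exon at 28200819 to 28203436, whose first 35 bases are coding. Cnpy1-203 reads on past the splice site within a last exon at 28205460 to 28207383, of which 369 bases are coding. The 30 coding bases before this point, in lower case, are shared, and the 30 coding bases after it, in capitals, are those that set the transcripts apart. Cnpy1-205 is shown from chr5:28207287-28207316 and chr5:28203407-28203436, and Cnpy1-203 from chr5:28207257-28207316, all on the minus strand.
Cnpy1-205: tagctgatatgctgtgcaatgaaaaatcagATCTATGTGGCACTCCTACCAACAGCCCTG
Cnpy1-203: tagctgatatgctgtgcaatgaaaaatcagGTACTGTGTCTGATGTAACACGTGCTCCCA
Both transcripts contain the exon of 204 bases, but their first exons differ, at 28245708 to 28245806 for Cnpy1-205 and at 28237718 to 28237873 for Cnpy1-203. The start codon of Cnpy1-205 lies in its first exon, and that of Cnpy1-203 in the exon of 204 bases. Of the stretches of 31 bases in Cnpy1-205, 90.9% were absent from Cnpy1-203 and Cnpy1-201, and 88.0% of those in Cnpy1-203 were absent from Cnpy1-205 and Cnpy1-202. With the shift toward the shorter Cnpy1-203, the mean effective length of the gene went from 2771 to 2226 bases. Cnpy1 in the knockout was 28.7% of wild type by TPM. By CPM, which carry no length and are TMM-scaled, it was 0.243 times wild type.

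The shares of the main transcripts of the paralogs differed between genotypes by less than the spread between mice. Cnpy2-201 (763 bases) was the main transcript of Cnpy2, with 78.9 ± 7.20 TPM in wild type and 82.1 ± 11.7 TPM in the knockout (SD, n = 3 each), or 71.8% and 73.2% of the gene. Cnpy2-202, which has the same number of coding bases, 546, but a length of 1383 bases, stood at 29.5 ± 2.93 and 28.3 ± 1.67 TPM (SD, n = 3 each). The lowest shares of Cnpy2-202 came from wild-type replicate 3 with 22.9% and knockout replicate 3 with 21.6% of the gene's TPM, while the other 4 mice lay between 26.6% and 29.5%. Cnpy3-201 carried 91.5% ± 2.23 of the TPM of Cnpy3 in wild type and 91.5% ± 2.61 in the knockout, and Cnpy4-202 carried 99.2% ± 1.35 and 99.3% ± 0.440 of that of Cnpy4 (SD, n = 3 each). Log2 fold changes of these transcripts were 0.13 (SE 0.09) for Cnpy2-201, 0.03 (SE 0.14) for Cnpy2-202, 0.07 (SE 0.08) for Cnpy3-201 and 0.01 (SE 0.08) for Cnpy4-202, and none was called. Without knockout replicate 1, Cnpy2-201 stood at 0.21 (95% interval 0.02 to 0.39), and without knockout replicate 3 at 0.08 (-0.15 to 0.31). It was called in neither fit.

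Among the minor transcripts of the paralogs, Cnpy3-203, annotated as a target of nonsense-mediated decay, had 0.256, 0.310 and 0 TPM in wild type and 0.753, 0.0964 and 1.64 TPM in the knockout. The high value belongs to knockout replicate 3, and the groups overlap. Cnpy3-205, which retains an intron, had 0.810, 0.698 and 0.838 TPM in wild type and 0.507, 0.636 and 0.415 TPM in the knockout, where all 3 values were lower, as in 7.36% of the 43741 transcripts tested (9.69% had groups that did not overlap in either direction). Its log2 fold change of -0.46 (SE 0.44) was not called. The other minor transcripts with reads, Cnpy2-203, Cnpy2-204, Cnpy2-205, Cnpy3-202, Cnpy3-204 and Cnpy4-201, each stayed at or below 1.91 TPM.

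The partner lists hold direct partners of Canopy proteins, other genes of their pathways and genes of a related fold. These 4 lists of 49 genes were examined next, and 46 of the genes were tested. None was called, and 3 had an unadjusted p under 0.05, or 6.52% beside 10.5% of all genes. Their median log2 fold change was 0.05, and 32 of 46 (69.6%) lay above 0, as did 52.3% of all genes tested. In 6 of 46 (13.04%, beside 16.2% of all genes) the groups did not overlap, 4 with the knockouts higher (Unc93b1, Tlr8, Tlr9 and Tlr13) and 2 with them lower (Spred2 and Smpd1), genes named here after their values were seen. DESeq2, limma and the other settings tried also called 0.

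The list for CNPY3 and CNPY4 held the Toll-like receptors with the genes that fold and carry them. Of 17 tested, 0 were called and 12 lay above 0, with a median of 0.12. Hsp90b1, which encodes GRP94, had 961 ± 37.3 CPM in wild-type mice and 924 ± 18.8 CPM in knockout mice (SD, n = 3 each), with a log2 fold change of -0.06. Unc93b1, the chaperone that takes nucleic-acid-sensing receptors to endosomes, had 35.8, 36.8 and 35.8 CPM in wild-type mice and 43.9, 38.3 and 39.1 CPM in knockout mice. It changed by 0.16 on the log2 scale (SE 0.06, edgeR adjusted p = 0.411) and was not called. Tlr4, the endotoxin receptor, changed by -0.01, Tlr2 by 0.12, Tlr9 by 0.24 and the coreceptor Cd14 by 0.19, none of them called. Tlr13 (0.40, edgeR adjusted p = 0.357) and Tlr6 (0.51, edgeR adjusted p = 0.438) were the other genes with an unadjusted p under 0.05, and are named for that after their values were seen.

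Toll-like receptors are largely genes of immune cells, and the summed CPM of the 7 immune markers (Ptprc, Cd68, Csf1r, Cd3e, Cd79a, Lyz2 and Aif1) ran from 223 to 256 in wild type and from 301 to 389 in the knockout, without overlap. All 7 lay above 0 with a median log2 fold change of 0.26, and 0 were called. The largest part came from Lyz2, with 108.5 to 140.1 CPM in wild-type mice and 178.2 to 251.9 CPM in knockout mice, and the lymphocyte markers Cd3e and Cd79a were near 0, at most 1.24 and 0.655 CPM. Whether this has a part in the values of the Toll-like receptor genes was not tested.

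The FGF list, which belongs to the role of canopy1 in zebrafish, had 13 genes tested of 15, since Fgf8 and Fgf17 fell under the filter on low counts. None was called, 11 lay above 0 and the median was 0.08. Fgfr1, the receptor tied to canopy1, was also the most abundant member, with 115 ± 7.37 CPM in wild-type mice and 117 ± 4.45 CPM in knockout mice (SD, n = 3 each), with a log2 fold change of 0.03. Etv5, a transcription factor induced by FGF, changed by 0.01 and the feedback inhibitor Spred1 by 0.02, and neither was called.

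The list for CNPY2 held Mylip with its lipoprotein receptor targets, and PERK with genes of its pathway. Of its 10 genes, 0 were called and 7 lay above 0, with a median of 0.05. Mylip had 59.0 ± 3.33 CPM in wild-type mice and 62.7 ± 1.86 CPM in knockout mice (SD, n = 3 each), with a log2 fold change of 0.09. Eif2ak3, which encodes PERK, had 77.0 ± 5.38 and 70.1 ± 6.76 CPM (SD, n = 3 each), with a log2 fold change of -0.14. The chaperone Hspa5 changed by 0.01 and the transcription factor Atf4 by 0.05, neither of them called. In the list of other saposin-fold genes, 6 were tested, since Sftpb fell under the filter. None was called, 2 lay above 0 and the median was -0.05. Psap, the saposin precursor, changed by -0.06, Manf by -0.03 and the sphingomyelinase gene Smpd1 by -0.11.

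**Figure D5:**
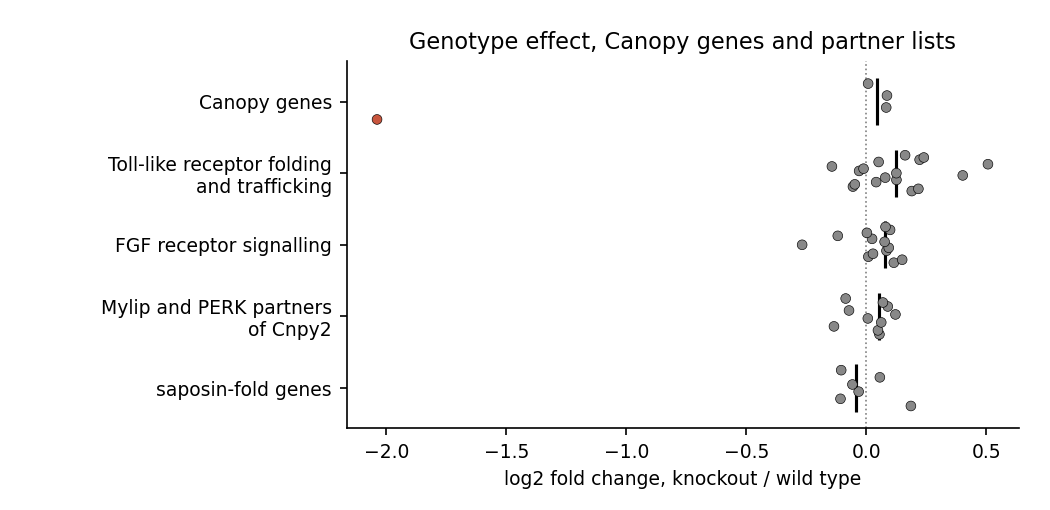
Log2 fold change (knockout over wild type) of the Canopy genes and of each tested member of the 4 partner lists; 1 point per gene, with a black line at the median of each list, red for the gene called and grey for genes not called. Cnpy1 at -2.04 stands alone, and the other genes lie between -0.27 and 0.51.

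The genes beside the Canopy genes on the chromosome were not called. The neighbours of Cnpy1 with reads enough to test were Insig1 (0.11) and Rbm33 (-0.03), 122157 and 71315 bases away. Beside Cnpy2 lay Pan2, which ends 1101 bases before it on the same strand (-0.16, edgeR adjusted p = 0.538), and the citrate synthase gene Cs (-0.04). Cnpy3 lay between Gnmt (0.21) and 2310039H08Rik (0.05). Cnpy4 and Taf6, a gene of the general transcription machinery, start 34 bases apart on opposite strands, and Taf6 changed by -0.05. Mblac1, on the other side of Cnpy4, changed by -0.07. Gm26904, a noncoding gene annotated across Cnpy3 on the opposite strand, had no transcript among those matched, so it could not be analysed. The libraries keep strand, but whether the quantification used it is not given in the sources used here.

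Likeness to other genes was described by Pearson's r of log2 CPM over the 6 libraries, among the 14760 genes whose mean CPM was at least 1. For Cnpy1 the highest values belonged to the V2R receptor genes Vmn2r85 (r = 0.999), Vmn2r11 (0.998) and Vmn2r62 (0.998), which were themselves called with log2 fold changes of -2.24, -2.87 and -2.99. The 6 libraries form 2 groups for these genes, so that r follows the genotype. For Cnpy2 the genes were Tmem252 (0.985), Sbno1 (0.985) and Tmem135 (0.983), for Cnpy3 Med17 (0.998), Frk (0.996) and Adipor2 (0.989), and for Cnpy4 Gper1 (0.989), Tuba1b (0.986) and Mief1 (0.985). None of these 9 was called. No gene was named for more than 1 Canopy gene. An r over 0.95 was reached by 193 genes for Cnpy1 and by 26, 57 and 27 genes for Cnpy2, Cnpy3 and Cnpy4. Over only 6 libraries, the highest r among 14760 genes can be this high by chance, and the likeness was not tested.

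The tissue label was checked against markers. Omp, a marker of mature chemosensory neurons, reached 516 to 879 TPM, and Trpc2 was given above. Summed CPM of 4 basal neuron markers (Gnao1, Tfap2e, Robo2 and Calr4) ran from 779 to 834 in wild type and from 666 to 682 in the knockout, where Gnao1 was called lower. Mature neuron markers (Omp, Trpc2, Stom and Cnga4, of which Stom was called lower) summed to 2454 to 2707 and 1984 to 2077 CPM, apical neuron markers to 1089 to 1151 and 1198 to 1263 CPM, and markers of ciliated respiratory cells to 181 to 204 and 207 to 223 CPM. The groups did not overlap in these 4 sums, and their part in the Canopy values was not tested. Sums of the other 8 marker lists besides the immune list overlapped between genotypes. Among these, all 6 genes of the immature neuron and progenitor list lay above 0, with a median log2 fold change of 0.45, and the proliferation gene Top2a was called higher (0.40, edgeR adjusted p = 0.0421). Mki67 (0.51, edgeR adjusted p = 0.0646) had groups that did not overlap and was not called, and the sum was dominated by Gap43 (0.13).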

How the data were processed

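Poly(A) RNA of the vomeronasal organs of 6 mice was measured with directional libraries, per the labels' protocols. The authors deposited estimated counts (reads that need not be whole) and TPM for 117081 Ensembl transcripts per library, per the file headers. The submitters' processing notes name Trim Galore 0.6.6, Salmon 1.9.0, DESeq2, mm10 and GRCm38. The index and annotation are not given in the sources used here. An estimated count divides reads among similar transcripts, which makes single transcripts less certain than genes.

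Transcripts were joined by identifier without version to GENCODE M21 (GRCm38). Of these, 115942 matched, 115501 with the same version, and the 1139 others, with 0.304% of reads, were left out. Counts were summed to 35450 genes and rounded, and deposited TPM were summed likewise. The test was edgeR 4.0.16's quasi-likelihood F test (R 4.3.3), with a genotype term alone, TMM scaling, low counts removed by filterByExpr, and Benjamini-Hochberg adjustment over all 16679 genes or 43741 transcripts tested. Genes with an adjusted p under 0.05 are described as called. CPM are TMM-scaled, and the common biological coefficient of variation was 12.8%. Sums and order were tested by exact permutation. Alternatives used DESeq2 1.42.0 and limma 3.58.1. The main fit was also run on simulated data with 200 genes changed, and its outcome is not reported here. Replicates of a genotype differed well beyond sampling noise, and each counted as 1 sample.

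The members, the partner and marker lists and the rules were chosen with earlier results of these data known. Named were the 4 genes and their transcripts with reads, called partner genes, the 3 most abundant of each partner list, direct partners, adjacent genes and, for each Canopy gene, the 3 genes with the highest r.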

Additional observations from a re-analysis of the deposited data

Results flagged for a closer look

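The genotype effect differed between females and males, by edgeR's test of the interaction term with Benjamini-Hochberg adjustment, for 4 of the 16679 genes tested. None of the 4 is a Canopy gene or a listed partner. With 1 female per genotype, this difference and a difference between single animals cannot be told apart. The same term gave adjusted p from 0.968 to 0.999 for the 4 Canopy genes.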

How the results depend on the processing

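Cnpy1 was called lower under all 16 alternatives (-2.09 to -1.72, the latter with effective lengths as an offset). Cnpy2 (0.02 to 0.12, adjusted p 0.606 to 0.947) and Cnpy3 (0.03 to 0.14, adjusted p 0.546 to 0.937) stayed above 0 and uncalled. Cnpy4 stayed uncalled and changed sign without scaling factors (-0.0213), where the median of all genes moved to -0.03, and ranged from -0.0318 to 0.0474 with 1 library left out. Genes called numbered 409 with the DESeq2 Wald test, 76 in males only, 69 to 96 with 1 library left out and 124 with the newer quasi-likelihood method, which was added after seeing the data. Those called higher numbered 13 in the main fit, 92 with the DESeq2 Wald test, 33 with the replicate number as a block and 3 to 25 with 1 library left out. Canopy transcripts called numbered 0 in males only and 1 or 2 with 1 library left out. All transcripts called numbered 48 in the main fit and 1 to 12 with 1 library left out. They numbered 4 with sex as a term, 1 with the replicate number as a block and 0 in males only. Partner genes called numbered 0 under the 16 alternatives fitted, and interaction genes 22 with low counts kept. The log2 ratio of the summed paralogs, 0.01, became 0.0725 in CPM and -0.0463 in males only, and ranged from -0.0575 to 0.055 with 1 library left out; that of all 4 genes, -0.60, became -1.11 in CPM. By reads per kilobase of the longest transcript, the log2 differences in order were 1.22 (Cnpy2 over Cnpy3), 1.12 (Cnpy3 over Cnpy4) and 2.33 (Cnpy2 over Cnpy4), and by the most abundant transcript only 1.58, 1.07 and 2.65. With 5 mice, the log2 differences in order ranged from 1.89 to 1.94 for Cnpy2 over Cnpy3, 1.16 to 1.21 for Cnpy3 over Cnpy4 and 3.06 to 3.14 for Cnpy2 over Cnpy4, and the smallest exact p is then 0.0625. Fits with males only or with a library left out use fewer samples, and the cause of the other changes was not tested.

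Deviations from the group mean correlated between same-numbered mice of the 2 genotypes with r = 0.15, -0.09 and 0.23. Between mice of different numbers, r ran from -0.29 to 0.17. With 3 mice per genotype, these values cannot settle whether the replicate numbers pair the mice. With the replicate number as a block, 154 genes and 1 Canopy transcript, Cnpy1-205, were called, and Cnpy1-203 was not (2.28, edgeR adjusted p = 0.108). Each Canopy gene had 925 or more reads per library; whether more depth would change its test was not examined, and transcripts under 1 TPM rest on few reads.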
